A study of Mus musculus with 10 samples.

Results

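The S100 calcium-binding proteins described here are 8 mouse genes, S100a1, S100a4, S100a6, S100a8, S100a9, S100a10, S100a11 and S100a13 of the S100 family. They were taken by name from a list of 8 symbols, through the RefSeq accession that the files pair with each probe, and no threshold on the values was applied. The list itself was chosen with earlier results of these data known. The 8 genes are represented by 9 probes of the 56605 on the array and by 8 of the 22911 genes that those probes name. All 8 genes were among the 15088 tested, and each was well above background on all 10 arrays, so the filter on dim probes removed none of them.

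RNA was measured in livers of male C57BL/6J +/+ mice on single-colour Agilent microarrays, with 1 mouse per array and 5 mice per group. In the ethanol group, mice received ethanol in the drinking water for 3 months, with a daily intake of 5 g/kg body weight in the first week and 10 g/kg afterwards. In the control group, mice received no ethanol. Both groups, each of 10 mice bought at 7 weeks of age, ate the same 60% high-fat diet for 4 months, the first month of it before ethanol began, so the controls were fed fat too and no group ate standard food throughout. The 5 mice per group on the arrays were drawn at random from those 10, per the labels.

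S100 proteins are small EF-hand proteins that mostly act as dimers. Calcium binding opens a surface through which they hold partner proteins such as annexins, and several members are also released from cells, where they act on receptors such as TLR4 and RAGE. In liver, S100a8 and S100a9 are best known from neutrophils and monocytes, and S100a4, S100a6 and S100a11 from macrophages, connective tissue cells and bile duct cells.

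Levels are given as scaled signal: the processed signal of a probe divided by the 75th percentile of its array and multiplied by 336, the geometric mean of those percentiles. The share of spots well above background ran from 55.5% to 59.1% over the arrays, and no spot was saturated. All 10 hepatocyte markers, albumin among them, passed the filter, and the labelled organ is liver. The arrays lay on 3 slides, each scanned separately. Slide 1 held ethanol mouse 4 and control mice 4 and 5, slide 2 held control mice 1 and 3, and slide 3 held ethanol mice 1, 2, 3 and 5 and control mouse 2. Most ethanol arrays therefore shared a slide. The differences of the 8 genes are thus also given from a fit that takes slide as a block, and from slide 1 or slide 3 alone. Ethanol mice 2 and 3 lay in slide column 1, mouse 5 in column 2 and mice 1 and 4 in column 3. Control mouse 2 lay in column 2, mouse 3 in column 3 and mice 1, 4 and 5 in column 4. Column 1 held ethanol arrays alone and column 4 control arrays alone, so group and column were partly confounded. For several genes a value with the slide column as a covariate is given too. Slide 1 has 1 ethanol array and slide 3 has 1 control array, and the number of arrays limits the precision. Liver pieces hold many cell types, so fewer cells of a type and less RNA per cell cannot be told apart.

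None of the 8 genes passed an adjusted p under 0.05 (limma with Benjamini-Hochberg adjustment over all genes), where 0.0199% of all genes tested did so. At an unadjusted p under 0.05, 4 of the 8 were lower in ethanol livers (S100a4, S100a6, S100a8 and S100a9), against a background of 5.3% of all genes lower by that rule. None was higher, against 7.98%. The 8 genes were chosen with earlier results of these data known, so these counts describe them and do not test the family. The count of 4 became 2 without control mouse 4 and likewise 2 without control mouse 5. It was 1 with slide as a block and 1 with the slide column as a covariate. A log2 fold change under 0 was seen for 5 of the 8 and for 43.6% of all genes. The median log2 fold change of the 8 was -0.61, against 0.03 over all genes tested. That median was -0.42 in the fit with a slide block and -0.66 with slide as a random block. It was -0.80 for slide 1 alone, -0.065 for slide 3 alone, and -0.23 without the arrays in slide column 1, ethanol mice 2 and 3. With the slide column as a covariate it was -0.079.

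**Figure D1:**
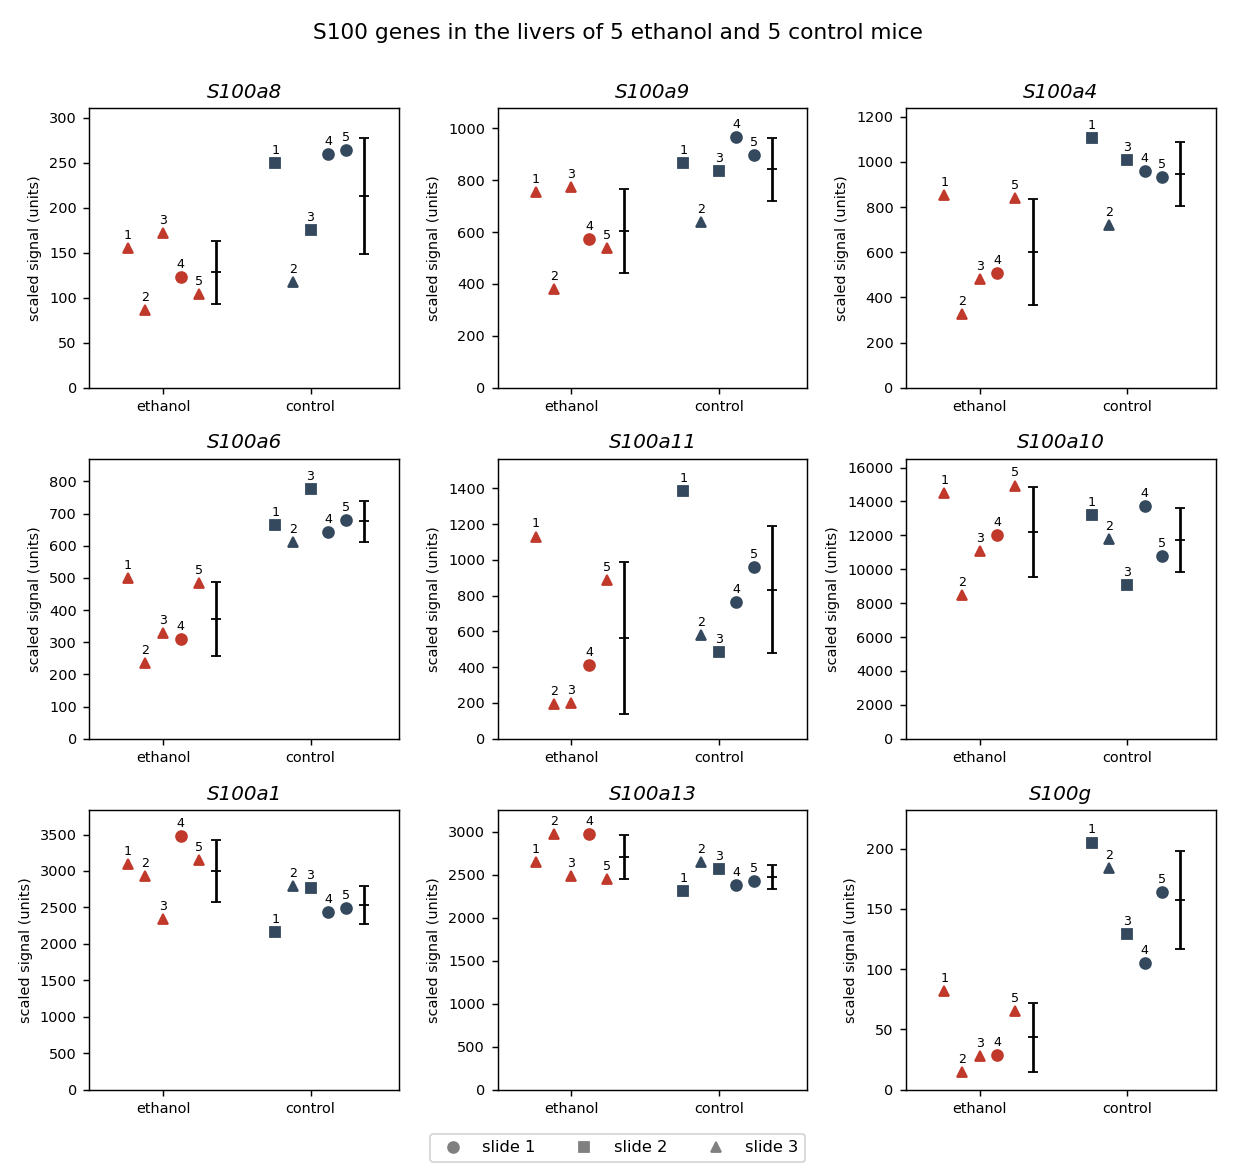
Scaled signal of each S100 gene in each liver, with 5 ethanol mice on the left and 5 control mice on the right, numbered 1 to 5, marker shapes for slides 1 to 3 and a bar for the mean ± SD; S100g is added. Among the 8 genes the groups do not overlap for S100a6, with ethanol livers at 237 to 499 and control livers at 611 to 777 units.

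S100a8 and S100a9 encode the subunits of calprotectin, an abundant heterodimer of neutrophils and monocytes that binds calcium, zinc and manganese. Their genes are neighbours on chromosome 3. RefSeq start windows of the pair (build GRCm38.p6, 250 bases before to 50 after the annotated start, in the direction of transcription) are printed because their transcripts had the highest rank correlation of any pair of the 8 genes across the livers (Spearman rho = 0.98). The windows are chr3:90668821-90669120 on the plus strand for S100a8 and chr3:90695672-90695971 on the minus strand for S100a9. Capitals mark matches on either strand to the letters TTNNGNAA, a short form of the C/EBP element, and to TATAAA.
S100a8: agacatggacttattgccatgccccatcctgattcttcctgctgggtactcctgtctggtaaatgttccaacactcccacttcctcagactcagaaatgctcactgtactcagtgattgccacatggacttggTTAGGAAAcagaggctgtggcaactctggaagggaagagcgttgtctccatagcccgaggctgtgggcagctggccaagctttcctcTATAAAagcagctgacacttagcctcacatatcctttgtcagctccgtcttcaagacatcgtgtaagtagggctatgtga
S100a9: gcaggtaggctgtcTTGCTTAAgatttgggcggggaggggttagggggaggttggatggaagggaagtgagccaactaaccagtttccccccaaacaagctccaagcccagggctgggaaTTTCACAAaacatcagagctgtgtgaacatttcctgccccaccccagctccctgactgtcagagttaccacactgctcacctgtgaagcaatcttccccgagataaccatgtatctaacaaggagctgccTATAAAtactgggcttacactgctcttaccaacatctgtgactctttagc
S100a8 held 1 C/EBP match starting 117 bases before the annotated start and a TATA match 30 bases before it. S100a9 held C/EBP matches 236 and 130 bases before the start and a TATA match at the start itself. Of all 32851 mouse windows of this length, 40.7% hold a C/EBP match and 13.6% a TATA match, so the matches describe these windows and do not set them apart from others.

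S100a8 had 156, 86.5, 172, 123 and 104 units in ethanol livers, in the order of mice 1 to 5. The control livers had 250.2, 117, 176, 259.7 and 264 units in the same order. Ethanol mouse 2 was lowest, and the groups overlapped through control mouse 2, which lay among the ethanol mice. The mean was 128 ± 35 units in ethanol livers and 213 ± 65 units in control livers (SD, n = 5 each), a log2 fold change of -0.72 ± 0.26 (SE), with a 95% interval of -1.30 to -0.13. By limma the unadjusted p was 0.021 and the adjusted p 0.32, so the difference did not pass the test. The slide block gave -0.45, the arrays of slide 1 alone -1.09, and those of slide 3 alone 0.085. The fit with the slide column as a covariate gave -0.29. Without ethanol mouse 2, control mouse 4 or control mouse 5 the unadjusted p was 0.052, 0.051 and 0.051.

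S100a9 had 756, 382, 773, 574 and 538 units in ethanol livers. Control livers had 867, 639.5, 834, 968 and 898 units. As for S100a8, ethanol mouse 2 was lowest and control mouse 2 was the lowest control, while ethanol mice 1 and 3 lay above that control and below the other controls. The log2 fold change was -0.51 ± 0.19 (SE, n = 5 each), with a 95% interval of -0.94 to -0.08, an unadjusted p of 0.025 and an adjusted p of 0.32 by limma. The slide block gave -0.38, slide 1 alone -0.70, slide 3 alone -0.12 and the slide column as a covariate -0.25.

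Across the 10 livers S100a8 and S100a9 correlated with Pearson r = 0.94 and Spearman rho = 0.98. The permutation p was 2e-05 for r and the adjusted p over 30 gene pairs 6e-04. The correlation was 0.89 in deviations from the group means, 0.91 in deviations from the slide means and 0.95 without the 2 livers farthest from the median of S100a8. Its adjusted permutation p stayed under 0.05 in each of those, at 0.0042, 0.031 and 0.016. Slides held 5 arrays at most, so no correlation within a slide is given.

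Markers of the cells that carry calprotectin are set beside these values. Of 16 neutrophil markers 9 were tested, with 5 higher and 4 lower, a median log2 fold change of 0.02, and 1 (Elane, a granule protease, 0.27 ± 0.11, unadjusted p = 0.029 by limma) at an unadjusted p under 0.05. Over all genes 7.98% were higher at that p. The summed signal of the 9 markers ran from 22924 to 27513 units in ethanol livers and from 20257 to 27530 in control livers, but Csf3r, a growth factor receptor, made up 91.8% of it. The other 8 summed to 1719 to 2479 units in ethanol livers and 1664 to 2049.5 units in control livers. The granule genes Ngp, Mmp9 and Ltf were above background on no array. Of 10 monocyte markers 8 were lower, 5 of them at an unadjusted p under 0.05, where 43.6% of all genes had a log2 fold change under 0 and 5.3% were lower by that p. The list had a median of -0.35 and a summed signal of 4747 to 8329 units in ethanol livers and 5929 to 8329 in control livers. Ly6c2 made up 60.9% of that sum. The other 9 summed to 1841 to 2592 units in ethanol livers and 2453 to 3340 units in control livers. The chemokine receptor gene Ccr2 had -1.23 ± 0.27, Chil3, a secreted lectin of macrophages and neutrophils, -0.81 ± 0.24, and Plac8 -0.47 ± 0.13. For slide 3 alone these were -0.995 for Ccr2, -0.062 for Chil3 and -0.21 for Plac8. None of these passed an adjusted p, and the part of these cells in the S100a8 and S100a9 values was not tested.

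**Figure D2:**
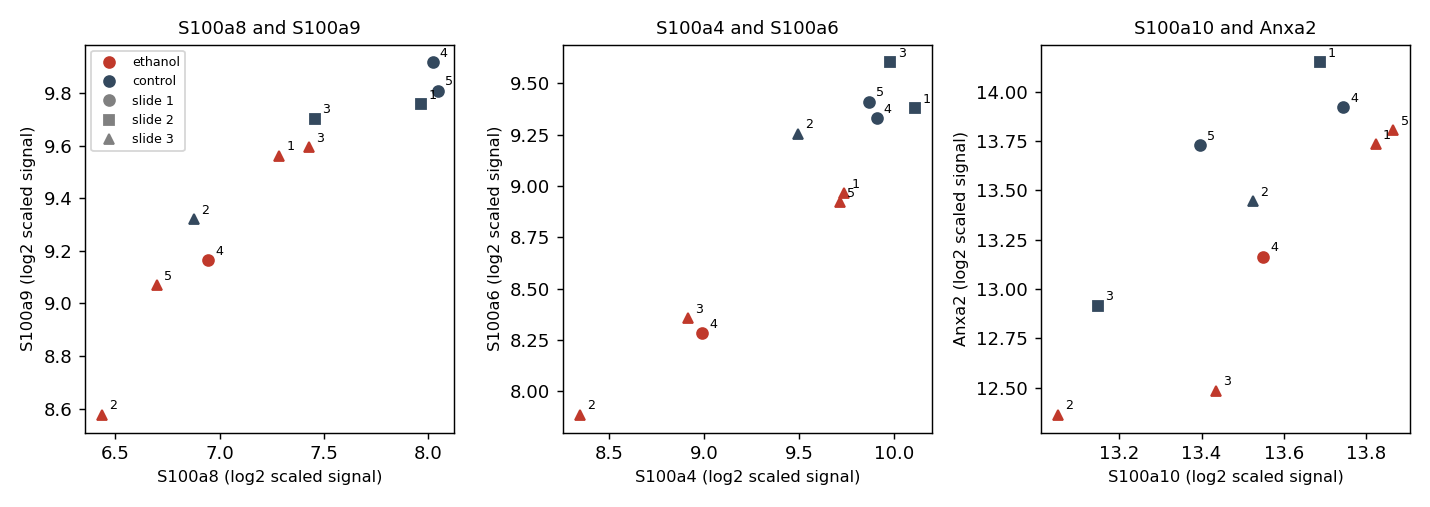
Log2 scaled signal of S100a8 against S100a9, S100a4 against S100a6 and S100a10 against Anxa2, 1 numbered point per liver, coloured by group (ethanol, control) and shaped by slide. The 10 points of S100a8 and S100a9 lie along a line (r = 0.94), as do those of S100a4 and S100a6 (r = 0.95).

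S100a4, known as fibroblast-specific protein and also expressed by macrophages, and S100a6, calcyclin, sit near each other on chromosome 3 with S100a5 between them. Their start windows are shown because their levels moved together: chr3:90603520-90603819 for S100a4 and chr3:90612644-90612943 for S100a6, both plus strand, GRCm38.p6, with capitals as above.
S100a4: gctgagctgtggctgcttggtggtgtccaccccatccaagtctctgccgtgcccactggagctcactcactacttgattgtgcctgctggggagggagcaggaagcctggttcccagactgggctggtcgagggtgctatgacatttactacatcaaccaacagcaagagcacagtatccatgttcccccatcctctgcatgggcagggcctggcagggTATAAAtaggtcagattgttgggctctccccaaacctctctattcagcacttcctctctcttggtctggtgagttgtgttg
S100a6: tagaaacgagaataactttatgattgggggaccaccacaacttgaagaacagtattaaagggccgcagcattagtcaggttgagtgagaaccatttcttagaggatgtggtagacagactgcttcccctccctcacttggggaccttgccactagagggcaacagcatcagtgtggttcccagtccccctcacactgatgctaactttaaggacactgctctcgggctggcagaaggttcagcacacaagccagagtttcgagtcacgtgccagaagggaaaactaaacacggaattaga
The S100a4 window held a TATA match 31 bases before the start and no C/EBP match. The S100a6 window held neither, nor a match to AP-1 (TGANTCA, in 7.8% of windows) or ETS (AGGAAG, in 35.4%). ETS matches lay 151 bases before and 18 bases after the start in S100a4, and 216 and 171 bases before the start in S100a8. S100a11 had 2 AP-1 matches, 136 and 38 bases before its start. S100a1 and S100a13 lie head to head, their windows sharing 204 bases, and neither held any of the 4 motifs.

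S100a6 had 499, 237, 327.5, 312 and 485 units in ethanol livers. The control livers had 666, 611, 777, 643 and 680.3 units. Every ethanol liver was below every control liver, as was so for 1.11% of all genes tested, and mice 2, 3 and 4 of the ethanol group were lowest. The mean was 372 ± 115 units in ethanol livers and 675.5 ± 62.7 units in control livers (SD, n = 5 each), a fold of 1.88 and a log2 fold change of -0.91 ± 0.19 (SE), with a 95% interval of -1.35 to -0.48. The unadjusted p was 7.9e-04 and the adjusted p 0.17 by limma, and S100a6 ranked 70 of 15088 by p. The slide block gave a log2 fold change of -0.89, slide 1 alone -1.09, slide 3 alone -0.72 and the slide column as a covariate -0.70, all below 0. Leaving out any 1 array gave -1.03 to -0.76.

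S100a4 had 852, 325, 483, 508 and 839.6 units in ethanol livers. Control livers had 1106, 719, 1009.6, 959.8 and 934 units. Ethanol mice 1 and 5 lay above the lowest control, mouse 2, and below the other controls, and ethanol mice 2, 3 and 4 were below every control. The log2 fold change was -0.73 ± 0.26 (SE, n = 5 each), with an interval of -1.30 to -0.17, an unadjusted p of 0.016 and an adjusted p of 0.31 by limma. The slide block gave -0.58, slide 1 alone -0.90, slide 3 alone -0.31 and the slide column as a covariate -0.32. Without ethanol mice 2 and 3 it was -0.39.

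S100a4 and S100a6 correlated with r = 0.95 (adjusted permutation p = 0.0045) and rho = 0.89. The value was 0.95 in deviations from group means (adjusted p = 0.037), 0.92 from slide means (adjusted p = 0.12) and 0.87 without the 2 livers farthest from the S100a4 median (adjusted permutation p = 0.0997). The coefficient stayed high in each, while the adjusted p passed the threshold in the first of these 3 alone.

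S100a11, calgizzarin, a partner of annexin A1, varied most between mice. It had 1131, 193, 201, 411 and 888.5 units in ethanol livers and 1384.5, 579.8, 484, 766 and 958 units in control livers. Ethanol mice 1 and 5 were within the control range, and mice 2, 3 and 4 were below every control. The coefficient of variation was 75.1% in ethanol livers and 42.8% in control livers, and the log2 fold change was -0.83 ± 0.52 (SE, n = 5 each), with an interval of -1.99 to 0.33 and an adjusted p of 0.49 by limma. It was -0.06 without ethanol mice 2 and 3, the arrays of slide column 1, and 0.16 with the slide column as a covariate. The slide block gave -0.69, slide 1 alone -1.06 and slide 3 alone -0.38. Without ethanol mouse 1 the value was -1.17, without ethanol mouse 2 -0.54 and without ethanol mouse 3 -0.55.

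Stellate and fibroblast markers are given beside these 3 genes. Of 11 tested 10 were lower, 8 at an unadjusted p under 0.05, and 3 did not overlap between groups. Over all genes 43.6% had a log2 fold change under 0, 5.3% were lower at that p and 1.11% lower without overlap. The median was -0.37, and the summed signal ran from 20687 to 32703 units in ethanol livers and from 33559 to 43477 in control livers. Dcn, a matrix proteoglycan, made up 64.4% of that sum, and the other 10 summed to 5777 to 11528 units in ethanol livers and 12733 to 17429 units in control livers. The collagen genes Col1a1 and Col1a2 had -1.90 ± 0.45 and -1.43 ± 0.32, and without ethanol mice 2 and 3 these were -1.23 and -0.996. Of 9 lipid-associated macrophage markers 7 were lower, with a median of -0.96 and a sum of 4362 to 32386 units in ethanol livers, against 9588 to 26939 in control livers. Among them Lgals3, galectin 3, had -0.96 ± 0.40. Gpnmb had -2.28 ± 0.99, but it was above background on 3 of 5 ethanol arrays and at the floor of 4 units in ethanol mouse 2, so its size depends on the floor (-1.57 with a floor of 16, and -0.82 with normexp). Itgax had -1.04. For slide 3 alone Lgals3 had -0.26, Gpnmb -0.21 and Itgax -0.08, and for slide 1 alone -1.36, -4.56 and -1.96. The slide column as a covariate gave -0.24, -1.08 and -0.18 in the same order. The mean log2 level of this list, relative to the control mean, was 0.62, -2.10, -1.27, -1.55 and 0.62 in ethanol mice 1 to 5 and 0.86, -0.71, -0.55, -0.03 and 0.42 in control mice 1 to 5. Ethanol mice 1 and 5 were high and mice 2, 3 and 4 low in this list, as they were for S100a11. Bile duct markers had 2 higher and 5 lower of 7 (median -0.11), with Epcam and Krt7 not above background on enough arrays. Of the 7, Cldn4 had 1.18 (0.18 with the slide block), Sox9 -0.66 (-0.62) and Krt19 -0.39 (-0.53). Of 3 mesothelial markers tested, Wt1 had -0.93 ± 0.41 and Gpm6a -0.61 ± 0.24 (above background on 1 ethanol array and 4 control arrays). Msln had -0.036 ± 0.73, and its sign depended on the setting. The part of these cells in the S100a4, S100a6 and S100a11 values was not tested.

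**Figure D3:**
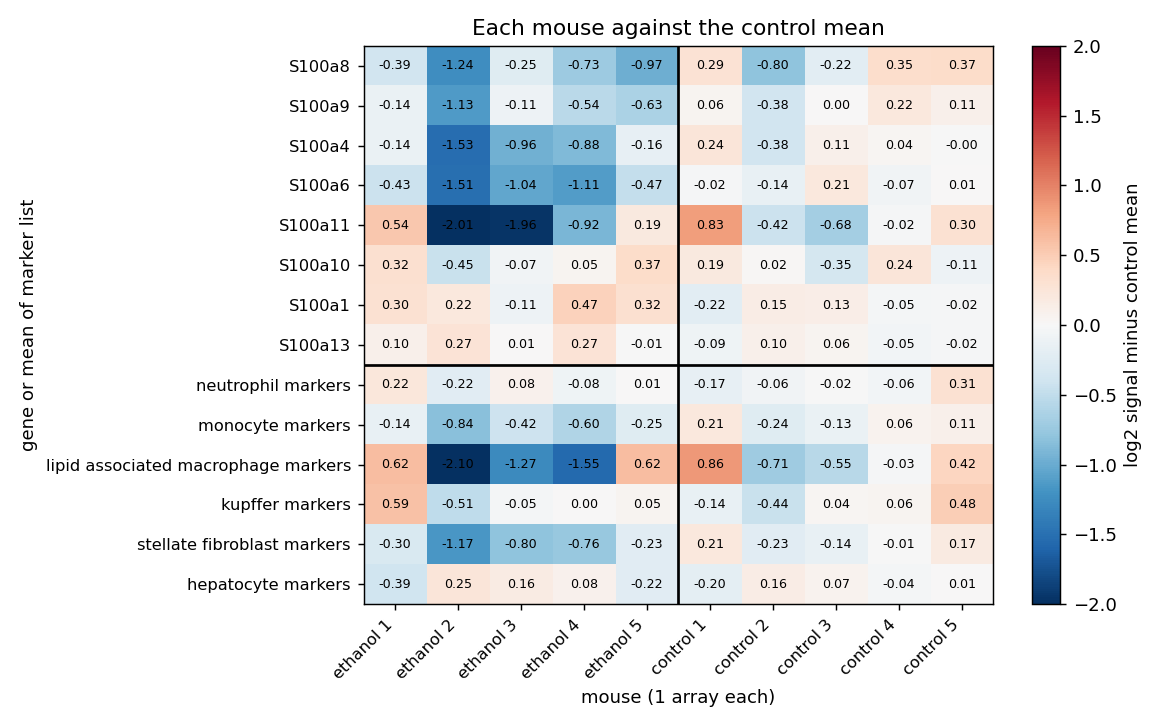
Log2 signal minus the control mean for each of the 8 genes and for the mean of 6 marker lists (rows) in ethanol mice 1 to 5 and control mice 1 to 5 (columns), with colours limited to -2 and 2. Ethanol mouse 2 is the lowest of all 10 livers for 6 of the 8 genes, and S100a11 reaches -2.01 there.

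S100a10, called p11, is the light chain of an annexin A2 complex and is the member that has lost calcium binding. It had 14496, 8477, 11077, 11992 and 14938 units in ethanol livers and 13204, 11789, 9081, 13723 and 10774 units in control livers. Both ranges overlapped, with ethanol mouse 2 lowest and ethanol mouse 5 highest. The log2 fold change was 0.04 ± 0.17 (SE), with an interval of -0.33 to 0.42 and an adjusted p of 0.93 by limma. Leaving out any 1 array gave -0.043 to 0.17, so no direction is given for it. The second probe of the gene gave 0.07, the slide block 0.0010, slide 1 alone -0.020 and slide 3 alone 0.019. S100a10 had 0.28 with the slide column as a covariate and 0.25 without ethanol mice 2 and 3. Anxa2, its partner, had -0.52 ± 0.33 (adjusted p = 0.49 by limma), and 0.090 with the slide column as a covariate. The 2 genes correlated with r = 0.78 across the livers (adjusted permutation p = 0.042; rho = 0.78, adjusted permutation p = 0.054), 0.92 in deviations from the group means, 0.87 in deviations from the slide means (adjusted permutation p = 0.11) and 0.59 without the 2 livers farthest from the S100a10 median, where it no longer passed the threshold (adjusted permutation p = 0.30).

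S100a1, a regulator of calcium handling best known in muscle, had 3099, 2927, 2340.4, 3482 and 3156 units in ethanol livers. The control livers had 2169, 2793, 2764, 2439.8 and 2488 units. Ethanol mice 1, 2, 4 and 5 were above every control and mouse 3 lay within the control range. The log2 fold change was 0.24 ± 0.12 (SE, n = 5 each), with an interval of -0.02 to 0.50 and an adjusted p of 0.39 by limma; slide 3 alone gave 0.03, slide 1 alone 0.50 and the slide block 0.25.

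S100a13, which serves the release of FGF1 and interleukin 1 alpha from cells without a signal peptide, had 2649, 2975, 2487, 2975 and 2447 units in ethanol livers and 2311, 2650.1, 2572, 2382 and 2431.5 units in control livers. Ethanol mice 2 and 4 were above every control and the other ethanol mice lay within the control range. The log2 fold change was 0.13 ± 0.08 (SE), with an interval of -0.05 to 0.31 and an adjusted p of 0.50 by limma; the slide block gave 0.13, slide 1 alone 0.31 and slide 3 alone -0.010. Fgf1 had 0.06 ± 0.21, and Il1a was not above background on enough arrays.

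**Figure D4:**
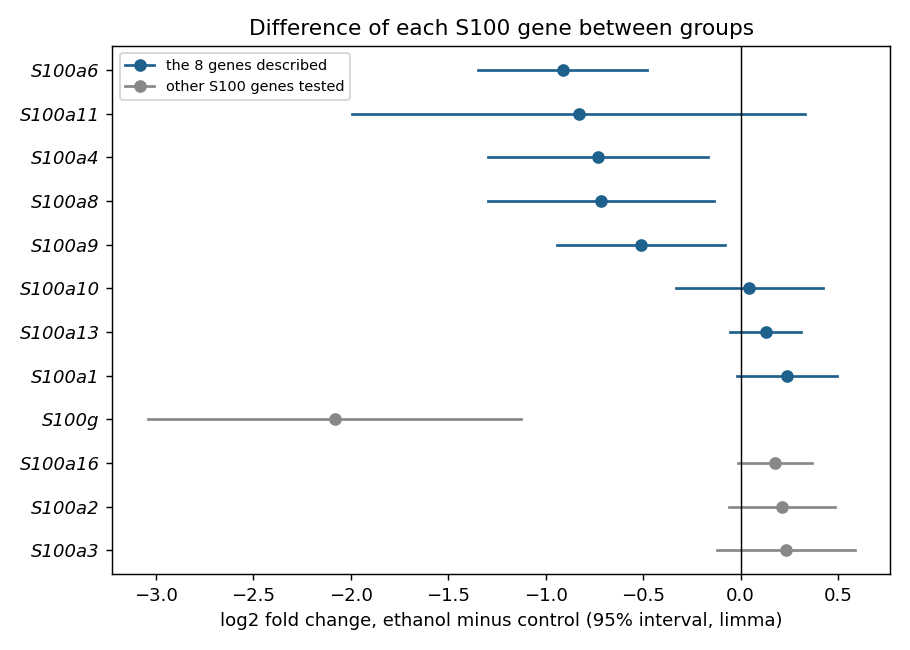
Log2 fold change, ethanol minus control, of the 8 genes and of 4 other S100 genes tested (grey), with points for the value and lines for the 95% interval from limma over 10 arrays. The intervals of S100a4, S100a6, S100a8 and S100a9 lie below 0, while none of the 8 passed the adjusted test.

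Over the 28 pairs of the 8 genes, 17 correlated above 0 and 11 passed an adjusted permutation p under 0.05. Over the 30 relations, these pairs and the 2 partner pairs, 12 passed, against 3 in deviations from the group means and 2 in deviations from the slide means. S100a13 ran against S100a4 (r = -0.77), S100a8 (r = -0.74) and S100a9 (r = -0.75), none of which passed in deviations from the group means (adjusted permutation p = 0.25 each) or the slide means (0.11, 0.11 and 0.12). Without the 2 livers farthest from the median of S100a4, S100a8 or S100a9, their adjusted permutation p was 0.054, 0.30 and 0.034. S100a1 went with S100a13 (r = 0.74) and against S100a8 (r = -0.74), and neither passed in group or slide deviations. S100a4 went with S100a11 (r = 0.87), with an adjusted permutation p of 0.031 in slide deviations and 0.0975 in group deviations. S100a4 and S100a6 each went with S100a9 (r = 0.77), and S100a6 with S100a11 (r = 0.74). None of those passed in group or slide deviations. By Spearman's rho, adjusted in the same way, S100a8 with S100a9 and S100a4 with S100a6 were under 0.05. S100a6 and its partner Cacybp had r = -0.19.

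Other genes whose levels followed a member most closely over the 10 livers are given as a description. For S100a4 they were Fstl1, a secreted glycoprotein of mesenchymal cells (r = 0.98), and Ddr2, a collagen receptor (r = 0.97). For S100a6 they were Grip1 and Col1a1 (r = 0.96 each), Grip1 being above background on 1 ethanol array and 5 control arrays. For S100a8 they were Mustn1 (r = 0.95) and Chil3 (r = 0.94), and for S100a9 Chil3 and Rbm43 (r = 0.92 each). For S100a11 they were Iqgap3 (r = 0.996), which was above background on 2 ethanol arrays and 4 control arrays, and Fabp4, a fatty acid carrier of adipocytes and macrophages (r = 0.987). S100a10 went with Klk1b4 and Pde6d, S100a1 with Cetn2 and Gm16381, and S100a13 with Mrpl51 and Fbl, with r between 0.92 and 0.98.

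**Figure D5:**
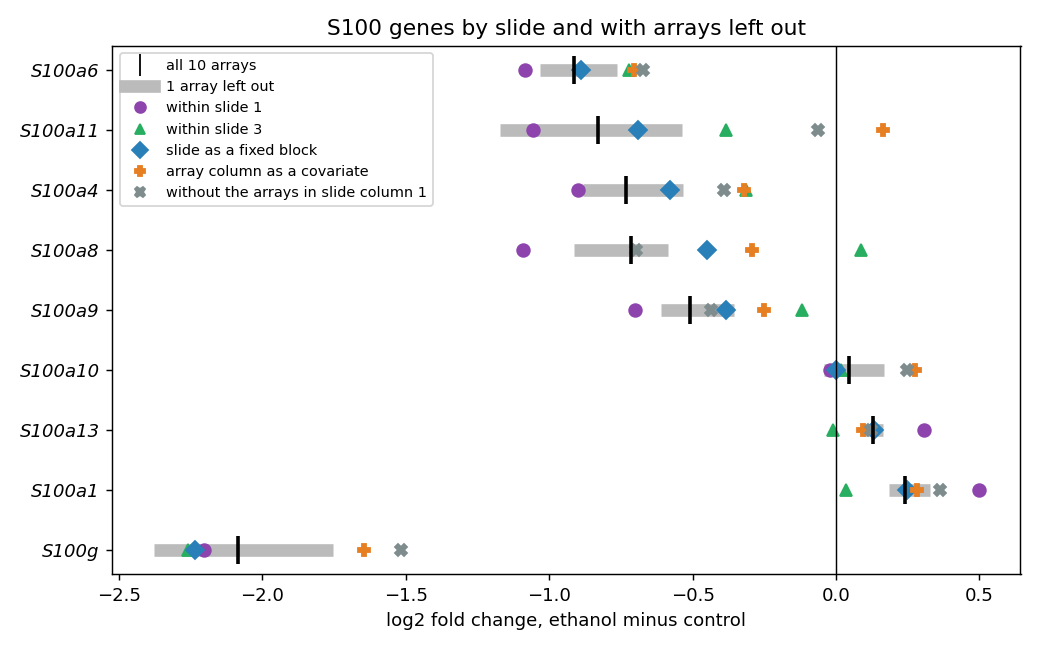
Log2 fold change, ethanol minus control, of the 8 genes and S100g over all 10 arrays (black line), with 1 array left out (grey bar, lowest to highest), and with slides or slide columns handled in 5 ways (symbols). S100a6 lies between -1.09 and -0.67 in all of these, while S100a8 is at 0.085 for slide 3 alone.

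Of 10 genes for receptors and signalling of extracellular S100 proteins, 1 was higher and 9 lower, with a median of -0.23. Over all genes 43.6% had a log2 fold change under 0 and 5.3% were lower at an unadjusted p under 0.05. Cybb, a subunit of the phagocyte oxidase, had -0.55 ± 0.21 (unadjusted p = 0.026; -0.11 for slide 3 alone) and was the single gene at an unadjusted p under 0.05; none passed the adjusted test by limma. Ager, encoding RAGE, had -0.16 ± 0.20, Tlr4 -0.08 ± 0.15, Ly96 -0.30 ± 0.20 and Cd14 -0.68 ± 0.40. Cd36 had -0.12, Itgam -0.41, Itgb2 -0.32, Myd88 -0.10 and Bsg 0.15. With the slide column as a covariate Ager had 0.04, Tlr4 0.20, Ly96 0.02, Cd36 0.18, Itgb2 0.20 and Bsg 0.29. In that fit Cybb had -0.18, Cd14 -0.03, Itgam -0.10 and Myd88 -0.16.

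Of 13 partner genes 12 were tested, 6 higher and 6 lower, with a median of 0.0010. A log2 fold change under 0 was seen for 43.6% of all genes. Anxa1, the annexin bound by S100a11, had 347, 196, 253, 293 and 339 units in ethanol livers and 459, 356, 454, 426 and 511.5 units in control livers. Every ethanol liver was lower than every control liver, as was so for 1.11% of all genes tested. The log2 fold change was -0.65 ± 0.16, with an unadjusted p of 0.0024 and an adjusted p of 0.20 by limma. It was -0.51 in the slide block fit, -0.67 for slide 1 alone, -0.37 for slide 3 alone and -0.34 with the column covariate. Anxa5 had -0.36, Iqgap1 -0.43 and Myh9 -0.22. Anxa6 had 0.03, Anxa11 0.35, Cacybp 0.04, Ahnak -0.03, Siah1a 0.12 and Sugt1 0.17. With the column covariate Anxa5 had 0.28, Iqgap1 0.0099, Myh9 -0.080, Anxa6 0.04 and Anxa11 -0.072. In that fit Cacybp had 0.07, Ahnak 0.12, Siah1a 0.17 and Sugt1 0.08.

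Among the 10 other S100 genes on the array, 4 were tested. S100g, a vitamin D-dependent calbindin of the intestine encoded on the X chromosome, had 81.8, 14.5, 27.8, 28.5 and 65.4 units in ethanol livers and 205, 184, 129, 105 and 164 units in control livers. Every ethanol liver was below every control liver, as for 1.11% of all genes tested. The log2 fold change was -2.08 ± 0.43 (SE, n = 5 each), a fold of 4.24, with an interval of -3.04 to -1.12, an unadjusted p of 6.4e-04 and an adjusted p of 0.17 by limma. The slide block gave -2.24, slide 1 alone -2.21 and slide 3 alone -2.26. It was -1.12 with the normexp background correction and -1.52 without ethanol mice 2 and 3, so its size depends on the processing. S100a16 had 0.17 ± 0.09, S100a2 0.21 ± 0.12 and S100a3 0.23 ± 0.16, none of them past the adjusted test, and with the column covariate S100a2 had -0.051 and S100a3 -0.020. S100a14, S100a7a, S100b and S100z were above background on no array, and S100a5 and S100a7l2 on a single ethanol array.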

How the data were processed

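Liver RNA of 10 mice, 5 per group, was measured on 1-colour Agilent arrays. The intensity columns were deposited by the authors as Agilent Feature Extraction output (version 10.7.3.1, array annotation on build mm9, per the file headers), with 150 ng of RNA labelled with Cy3, per the labels. The authors' deposited log2 values were checked against the scanner values and correlated with r = 1 on each array; column medians ran from -0.12 to 0.08, and what they were centred on is not known. Per array, processed signal was divided by its 75th percentile, floored at 4 units and taken to log2. Spots of a probe were averaged, and probes were kept when well above background on 4 or more of 5 arrays of a group (31110 of 56605). The brightest kept probe represented a gene, and 5025 genes had several. Probes were named by RefSeq accession (32994 named, 23611 not named), since the files used here give no symbols. Median spot signals with an offset of 50 served the normexp alternative, because no mean signal column was present. Testing used limma 3.58.1 in R 4.3.3, group only, with Benjamini-Hochberg adjustment over 15088 genes. Correlations over all 10 arrays used 100000 resamples and 95% intervals came from limma. Correlations in group or slide deviations used every reordering within groups or within slides. Those without the 2 farthest livers used every order of the rest. Scripts were tested on simulated data. Members, lists and pairs were chosen with earlier results of these data known. Named were all members, all other S100 genes, the receptor and partner lists, up to 3 genes per marker list with the smallest p, and the 2 genes most like each member. The replicate numbers in the labels are names and were not used to pair mice. RefSeq start windows (GRCm38.p6) matched 7 of 8 members by symbol; S100a10 had none in the table used. Alternatives were other scalings, filters and floors, slide and column terms, array weights and leaving out each array.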

Additional observations from a re-analysis of the deposited data

Results flagged for a closer look

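A few livers stood apart from the other 4 of their group for genes named here, by the gap to the nearest value as a share of the group's range. This happened in 9 of 160 groups (5.62%), and chance alone flags about 1 in 20.

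Tlr4 was 23.1 units in ethanol mouse 2, with the others at 35.6 to 36.9 (share 0.926). Cd36 was 1419.7 in ethanol mouse 3 (others 2558.2 to 3239.7, share 0.714) and 2190.6 in control mouse 3 (others 2808.2 to 2957.3, share 0.828). Retnlg, a neutrophil gene, was 23.6 in ethanol mouse 1 (others 13.9 to 15.9, share 0.745) and 28 in control mouse 5 (others 17.3 to 19.4, share 0.763). Cldn4 was 14.9 in ethanol mouse 4 (others 46.8 to 57.6, share 0.847), and Cetn2 was 1229 in ethanol mouse 3 (others 1485.1 to 1579.2, share 0.755). Ccr2 was 138.8 in control mouse 1 (others 78.7 to 91.2, share 0.74) and Cd3e was 1253.8 in control mouse 2 (others 739.1 to 837.8, share 0.763).

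S100a5 and S100a7l2, not tested because their probes were too dim, were above background in ethanol mouse 2 alone, at 22 units (other ethanol mice 3 to 13.5) and 30.9 units (other ethanol mice -1.8 to -1.1).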

How the results depend on the processing

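Across 28 alternatives none of the 8 genes passed an adjusted p under 0.05, and the smallest adjusted p was 0.0792, for S100a6, whose adjusted p ran up to 0.9995 (within slide 3). The count of genes passing over the whole table was 3. It was 7 with normexp, 5 with a floor of 16, 0 without a filter on dim probes, 12 with slide as a random block, 7 with a trended robust prior and 15 with array weights. It was 0 by limma with slide as a fixed block (805 genes at an unadjusted p under 0.05), 0 within slide 1 (2094), 0 within slide 3 (677), 0 with the array column as a covariate (866) and 0 to 7 without 1 array. Members lower at an unadjusted p under 0.05 numbered 4, but 1 with the fixed slide block, 0 within slide 3, 1 with the column covariate and 2 to 5 without 1 array. Members higher numbered 0, but 1 within slide 1, 1 leaving out ethanol mice 2 and 3 (slide column 1), 1 with the trended prior, 2 with array weights and 0 to 1 without 1 array. The sign turned for S100a8 within slide 3 (0.085), S100a10 with quantile normalization (-0.051) and within slide 1 (-0.020), S100a11 (0.16), S100a2 (-0.051) and S100a3 (-0.020) with the column covariate, S100a3 within slide 1 (-0.20) and S100a13 within slide 3 (-0.010); S100a10 without 1 array ran from -0.043 to 0.17. The cause was not tested. Correlated pairs past the threshold numbered 12 of 30, and 3 in group deviations, 2 in slide deviations, 5 with normexp and 2 without the 2 farthest livers. Whether the replicate numbers pair mice is not known: same-numbered mice had correlations of -0.11 to 0.32, and 2 of 5 ethanol mice matched best with their own number. With a replicate block 0 genes passed (2443 at an unadjusted p under 0.05, against 2003 without it) and 5 members were lower at an unadjusted p under 0.05. In that fit S100a11 had -0.83 ± 0.23 (unadjusted p = 0.010 and adjusted p = 0.20 by limma). Of 68 other named genes, 30 changed sign under at least 1 alternative. Slide 1 has 1 ethanol array and slide 3 has 1 control array, so counts within them assume that the lone array varies like the others and say little. With 5 arrays per group small differences cannot be resolved; dim probes limit some marker genes and not the 8 S100 genes, which were well above background on every array.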

Other observations

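Markers of further cell types are given as values. For comparison, 43.6% of all genes tested had a log2 fold change under 0. At an unadjusted p under 0.05 by limma, 7.98% of all genes were higher and 5.3% lower. Of 10 Kupffer cell markers 5 were higher and 5 lower, with Clec4f, a receptor of resident macrophages, at 0.42 ± 0.16 (unadjusted p = 0.022 by limma) and a median of -2.2e-05. Timd4 had 0.24 and Marco -0.46. Of 8 endothelial markers 3 were higher and 5 lower, with Pecam1 at 0.32 ± 0.12, Lyve1 at -0.41 and Eng at -0.17. Pecam1 was 0.09 with the slide block and -0.10 for slide 1 alone. Of 10 lymphocyte markers 3 were higher and 7 lower, with Cd79b at -0.39 ± 0.15, Ms4a1 at -0.22 and Cd3e at 0.27. Of 6 erythroid and platelet markers 1 was higher and 5 lower, with Ppbp at -0.61 ± 0.21 and Pf4 at -0.70 ± 0.31, both platelet chemokine genes. Of 10 hepatocyte markers 5 were higher and 5 lower, with a median of -0.0035, Apob at -0.25 ± 0.10, Apoa1 at -0.22 and Serpina1a at 0.08. None of these passed an adjusted p under 0.05 by limma. With the slide column as a covariate Clec4f had 0.66, Timd4 0.47, Marco 0.05, Pecam1 0.16, Lyve1 0.02 and Eng -0.08. In that fit Cd79b had -0.20, Ms4a1 -0.13, Cd3e 0.02, Ppbp -0.22 and Pf4 -0.21. Apob had -0.29, Apoa1 -0.22 and Serpina1a -0.06 there. Marco had 0.35 for slide 3 alone.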
